A study of Mus musculus with 12 samples.

Results

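Iron and haem genes were followed across the cerebellum of Npc1-/- and Npc1+/+ mice at 2 ages. The 10 genes were Alas2, Hba-a1, Hmox1, Fth1, Ftl1, Tfrc, Trf, Cp, Slc40a1 and Slc11a2, and their probe sets were selected by the platform annotation, which assigns 30 of the 22690 probe sets of the array to them. No intensity entered that rule, but the genes were picked with earlier results from these arrays known, so the tests describe these 12 arrays and are not independent evidence. Of the 30 probe sets, 3 are array controls for Tfrc and 7 are also assigned to another gene, which leaves 20 that are assigned to 1 gene alone. Ftl1 and Trf have no probe set of their own. The other 8 genes do, and 6 of these 8 (Alas2, Fth1, Tfrc, Cp, Slc40a1 and Slc11a2) had a mean intensity above the filter set for the test across genes. Hmox1 and the probe set assigned to Hba-a1 alone were below it. All 27 probe sets that are not controls were also tested among all 22626 such probe sets with no filter.

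Every array was 1 animal of the strain BALB/c Npc1, per the labels, with 3 animals in each of 4 groups. The groups were Npc1-/- at postnatal day 49 (P49), Npc1+/+ at P49, Npc1-/- at postnatal day 21 (P21) and Npc1+/+ at P21. Total RNA of the whole cerebellum was measured, and the animals received no treatment. The labels name no promoter, Cre or further allele, mention no perfusion, and give 1 animal, Npc1-/- P49 replicate 1, as male and 11 as female.

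Iron enters most cells bound to transferrin through the transferrin receptor, is stored in ferritin and leaves through ferroportin, which works with a ferroxidase. Much of it is built into haem, and in erythroid cells haem synthesis starts with the enzyme encoded by Alas2 and ends in haemoglobin, whose globin mRNAs persist in reticulocytes. Haem is broken down by haem oxygenases, which free the iron again. In brain, oligodendrocytes, microglia and the choroid plexus are known for high levels of several of these transcripts, and Npc1, whose loss causes Niemann-Pick type C disease, encodes a protein that moves cholesterol out of late endosomes and lysosomes.

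The promoters of Alas2 and Hba-a1 are shown because Alas2 and alpha globin had the largest differences with age among these genes. Hba-a1 is 1 of the 2 alpha globin copies that the bright probe sets read together, and its share of that signal is not known. Each line gives the 250 bases before the start of the gene from RefSeq, build GRCm38.p6, 5′ to 3′ on the plus strand, at chrX:150547167-150547416 for Alas2 and chr11:32283422-32283671 for Hba-a1. Capitals mark GATAA, the core letters bound by the erythroid factor GATA1, read on either strand.
Alas2: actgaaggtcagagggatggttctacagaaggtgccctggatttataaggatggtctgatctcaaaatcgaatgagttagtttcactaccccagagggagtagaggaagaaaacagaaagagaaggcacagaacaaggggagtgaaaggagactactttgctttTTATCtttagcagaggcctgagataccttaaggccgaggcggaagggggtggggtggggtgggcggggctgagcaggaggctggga
Hba-a1: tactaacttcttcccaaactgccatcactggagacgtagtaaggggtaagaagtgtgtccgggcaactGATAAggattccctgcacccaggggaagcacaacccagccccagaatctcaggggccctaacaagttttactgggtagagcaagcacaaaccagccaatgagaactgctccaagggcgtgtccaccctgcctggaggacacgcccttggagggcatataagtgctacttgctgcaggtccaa
Each window held 1 GATAA, whose first base lay at position -86 in Alas2 and -182 in Hba-a1, counted back from the start. CACCC, the letters known for binding erythroid factors of the KLF family, was found 3 times in the Alas2 window and 2 times in the Hba-a1 window, again on either strand. Among 32851 RefSeq windows of the same length, 22.6% held GATAA and 52% held CACCC, so these matches describe the letters and mark no site. The windows of Hba-a1 and its copy Hba-a2, with the first bases of the genes, were identical at 297 of 297 positions when shifted by 3 bases.

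Values are log2(intensity + 16) after quantile normalization, called log2 intensity, and differences are on that scale with limma's standard error. A probe set or gene is called when its adjusted p (limma, Benjamini-Hochberg over all features tested) is under 0.05. The arrays carried the labelled tissue, with the Purkinje cell gene Pcp2, the granule cell gene Gabra6 and the myelin gene Mbp at group means of 16.63 to 17.43. Npc1 was at 8.25 to 10.53 in the 6 Npc1-/- arrays and at 11.06 to 11.75 in the 6 Npc1+/+ arrays, although neither age passed the test across genes (adjusted p = 0.0591 at P49 and 0.101 at P21). Sex-linked genes went against the labels on 3 arrays that are labelled female and on the array labelled male. Below, the 3 arrays with discordant sex-linked genes are those labelled female. Xist was at 9.28 on Npc1+/+ P21 replicate 2 and at 13.01 and 13.36 on Npc1-/- P21 replicates 2 and 3, against 15.61 to 15.86 on the other 9 arrays, among them the array labelled male. Kdm5d, another sex-linked gene, was at 11.37, 10.17 and 11.37 on these 3 arrays, against 6.51 to 8.82 on the others. The array labelled male was at 6.51. The age differences in Npc1-/- of Alas2, alpha globin, Ftl1 and Fth1 are therefore also examined without the 3 arrays labelled female. This leaves 1 Npc1-/- P21 array, replicate 1, whose spread is taken to equal that of the other arrays. In this bulk tissue, fewer cells of a type and less RNA per cell cannot be told apart.

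Alpha globin was lower and the ferritin light chain higher in Npc1-/- than in Npc1+/+ cerebellum at P49, and in Npc1-/- mice Alas2 and alpha globin were lower and the ferritin light chain higher at P49 than at P21. No gene of iron uptake or export was called. For Npc1-/- against Npc1+/+ at P49, 2 of the 27 probe sets were called higher (both of Ftl1) and 1 lower (alpha globin), where 1.39% of all probe sets were called. Groups did not overlap for 13 of the 27 at P49, 10 higher and 3 lower, beside 19% of all probe sets. Probe sets that read the same gene, as for Cp, alpha globin and Ftl1, are not separate results in this and the other counts of probe sets. At P21 no probe set was called by limma, where 0.0309% of all were; 7 of 27 had an unadjusted p under 0.05, beside 8% of all, and 3 did not overlap, beside 11% of all.

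Age gave the larger number of calls in Npc1-/- mice. For P49 against P21 in Npc1-/-, 4 probe sets were called lower (Alas2 and 3 of alpha globin) and 2 higher (both of Ftl1), where 2.47% of all probe sets were called, and 11 did not overlap, beside 18.5% of all. For P49 against P21 in Npc1+/+, none was called, where 0.278% of all were; 7 had an unadjusted p under 0.05, beside 8.14% of all, and 8 did not overlap, beside 17% of all. The genotype difference itself differed between the ages for 1 probe set, of alpha globin, where 0.256% of all did. Unadjusted, 9 of 27 were under 0.05 for genotype at P49, 10 for age in Npc1-/- and 7 for the difference between ages, beside 9.44%, 15.2% and 7.01% of all. In the test across genes, none of the 6 genes above the filter was called for genotype at P49, at P21, for the difference between them, or for age in Npc1+/+, where 2.65%, 0.0638%, 0.549% and 0.702% of genes were. At an unadjusted p under 0.05 they numbered 3, 2, 1 and 3, beside 11.3%, 10.1%, 8.44% and 9.99% of genes. For age in Npc1-/- 6.23% of genes were called and 20.9% had an unadjusted p under 0.05. Alas2 was called there too, but it was above the filter only through the P21 arrays in which it was high, so this call is not counted, and its values below come from the test over all probe sets with no filter.

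**Figure D1:**
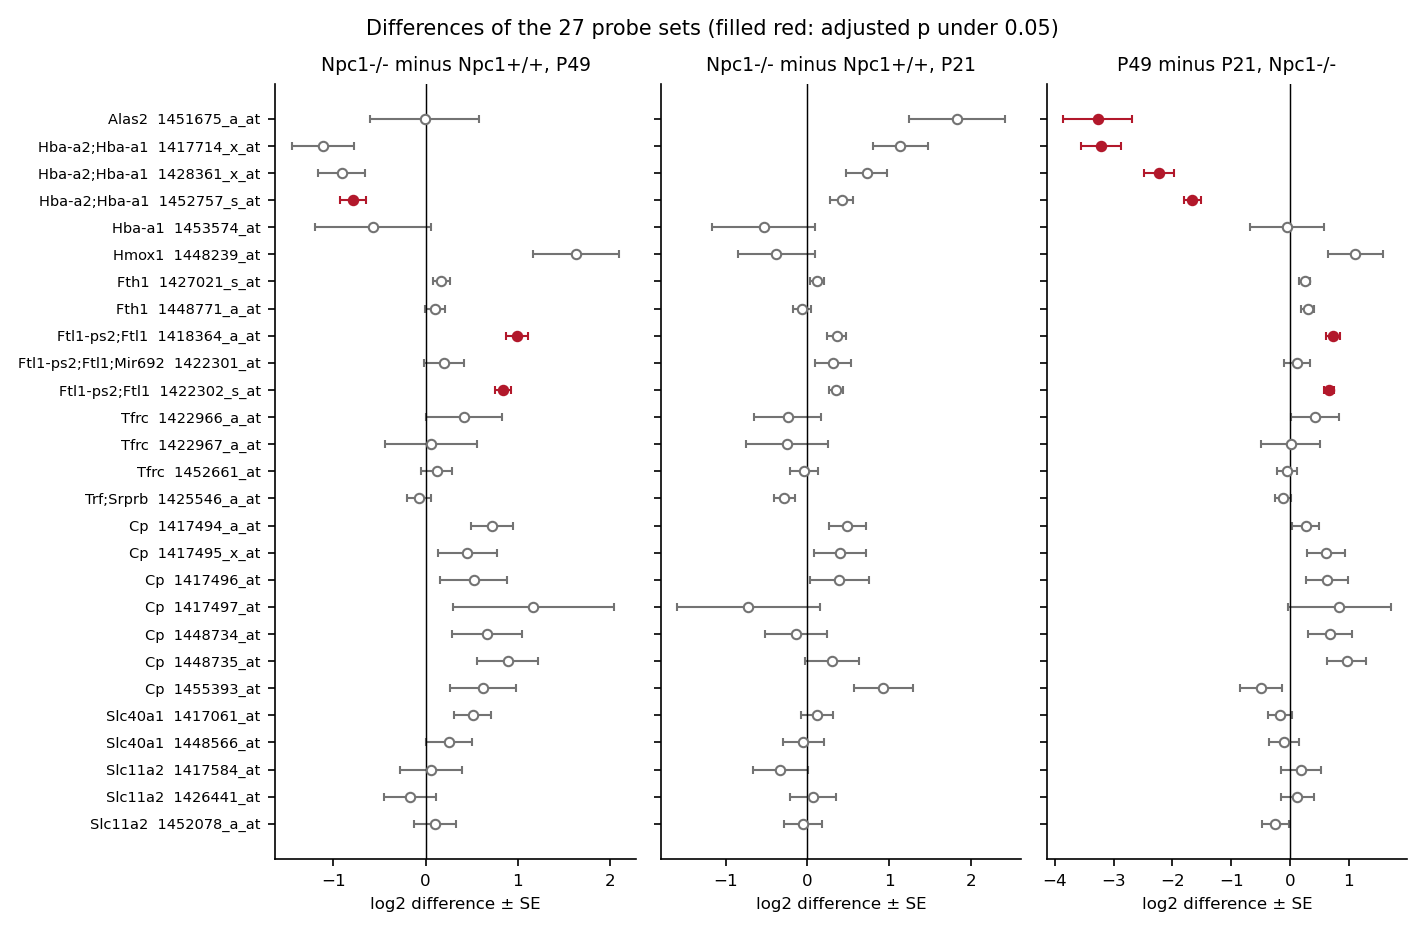
Log2 differences with limma's standard error for the 27 probe sets that are not controls, Npc1-/- minus Npc1+/+ at P49 (left) and at P21 (middle), and P49 minus P21 in Npc1-/- (right). Filled red points have an adjusted p under 0.05; they are 3 at P49, 0 at P21 and 6 for age, with Alas2 at -3.27 and Ftl1-ps2;Ftl1 at 0.73 and 0.66 in the right panel.

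Alas2, the enzyme that starts haem synthesis in erythroid cells, was much lower at P49 than at P21 in Npc1-/- cerebellum. The 3 Npc1-/- P49 arrays were at 8.74, 8.98 and 9.31 log2 intensity and the 3 Npc1+/+ P49 arrays at 9.68, 8.91 and 8.46. At P21 the Npc1-/- arrays were at 13.84, 11.82 and 11.20 and the Npc1+/+ arrays at 10.23, 9.69 and 11.44. The P49 groups overlapped, and all 6 P49 arrays lay below the filter (9.93). Npc1-/- P21 replicate 1 stood highest, at an intensity of 14960 as deposited beside 3349 and 2374 in the other Npc1-/- P21 animals.

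In Npc1-/- the difference with age was -3.27 ± 0.59 (fold 0.103, adjusted p = 0.0105, n = 3 animals each), with every P49 array below every P21 array. In Npc1+/+ the difference was -1.44 ± 0.59 (adjusted p = 0.532), and the highest P49 array (9.68) lay just under the lowest P21 array (9.69). The difference between these age effects, which equals that between the genotype effects, was -1.84 ± 0.83 (adjusted p = 0.696), so it was not shown that age acted differently in the genotypes. Between genotypes Alas2 differed by -0.01 ± 0.59 at P49 and by 1.83 ± 0.59 at P21 (adjusted p = 1 and 0.498). The size of the age difference in Npc1-/- depended on Npc1-/- P21 replicate 1: without it the difference was -2.48 (adjusted p = 0.0226). Without the 3 arrays with discordant sex-linked genes, where that array alone stands for Npc1-/- at P21, it was -4.85 (adjusted p = 0.000982), and the genotype difference at P21 was 3.00 (0.188). The age call was lost without Npc1-/- P49 replicate 2 (0.0545), without a mean-variance trend (0.0545) and with only the arrays compared (0.0589), in a range of 0.000982 to 0.0589 over all alternatives.

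Alpha globin, the protein chain of haemoglobin encoded by the near-identical pair Hba-a1 and Hba-a2, was, like Alas2, lower at P49 than at P21 in Npc1-/-, and it was also lower in Npc1-/- than in Npc1+/+ at P49. The 3 brighter probe sets are assigned to both genes, and none of them can split the signal between the copies. The one with the highest mean intensity, 1452757_s_at, was at 15.39, 15.32 and 15.57 in Npc1-/- P49 and at 16.44, 16.04 and 16.17 in Npc1+/+ P49. At P21 it was at 17.21, 17.18 and 16.87 in Npc1-/- and at 16.66, 16.43 and 16.91 in Npc1+/+. The 3 Npc1-/- P49 arrays were the lowest of all 12, and the P21 groups overlapped after normalization. As deposited, the P21 groups did not overlap, at intensities of 146400, 180900 and 127400 in Npc1-/- against 96310, 89190 and 111400 in Npc1+/+.

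This probe set differed by -0.79 ± 0.14 between genotypes at P49 (fold 0.579, adjusted p = 0.0105) and by 0.42 ± 0.14 at P21 (adjusted p = 0.518). The difference between these genotype effects was -1.21 ± 0.20 (adjusted p = 0.0254), with a positive effect at P21 and a negative one at P49. With age it differed by -1.66 ± 0.14 in Npc1-/- (fold 0.317, adjusted p = 3.94e-05) and by -0.45 ± 0.14 in Npc1+/+ (adjusted p = 0.347). The P49 genotype call was lost without Npc1+/+ P49 replicate 1 (adjusted p = 0.0694) or Npc1-/- P49 replicate 2 (0.0793), in a range of 0.00298 to 0.0793 over all alternatives. The call of the difference between ages was lost without any of 7 single arrays: Npc1-/- P49 replicates 2 (0.111) and 3 (0.0583), Npc1+/+ P49 replicates 1 (0.0846) and 3 (0.0715), Npc1-/- P21 replicate 1 (0.0501) and Npc1+/+ P21 replicates 1 (0.0765) and 2 (0.056). Over all alternatives it ran from 0.0136 to 0.168. Without the 3 arrays with discordant sex-linked genes all 3 calls held, again with Npc1-/- P21 replicate 1 alone in its group, at adjusted p = 0.00298 for genotype at P49, 0.0454 for the difference between ages and 0.000282 for age in Npc1-/-.

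The 2 other shared alpha globin probe sets had the same order of groups with larger differences. Probe set 1428361_x_at was at 14.67, 14.54 and 15.20 in Npc1-/- P49, against 16.02, 15.34 and 15.79 in Npc1+/+ P49, and at 17.39, 17.15 and 16.57 in Npc1-/- P21, against 16.22, 16 and 16.72 in Npc1+/+ P21. Probe set 1417714_x_at was at 13.27, 13.19 and 13.90 in Npc1-/- P49, against 14.88, 14.12 and 14.68 in Npc1+/+ P49, and at 17.43, 16.65 and 15.93 in Npc1-/- P21, against 15.49, 15.06 and 16.05 in Npc1+/+ P21. For both, the genotypes were separate at P49 and overlapped at P21 after normalization. As deposited, 1417714_x_at overlapped at P21 but 1428361_x_at did not, at 162000, 172600 and 102100 in Npc1-/- against 71590, 66310 and 99730 in Npc1+/+. With age in Npc1-/- the 2 probe sets, 1428361_x_at first, differed by -2.23 ± 0.25 and -3.22 ± 0.34 (adjusted p = 0.000287 and 0.000194), and both were called. Without the 3 arrays with discordant sex-linked genes, these probe sets differed by -2.54 and -3.92 with age. Their genotype differences at P49, -0.91 ± 0.25 and -1.11 ± 0.34, were not called (adjusted p = 0.116 and 0.191), and passed without the 3 arrays with discordant sex-linked genes (0.0375 and 0.023, in ranges of 0.0328 to 0.454 and 0.0218 to 0.561 over all alternatives). The size of the age difference followed the mean intensity of the probe sets, from -3.22 at 49950 and -2.23 at 77150 to -1.66 at 92870, the last at the 99.4th percentile of the array, and whether the brightest probe set was compressed was not tested. The probe set assigned to Hba-a1 alone, 1453574_at, did not have this order. It was dim, with a mean intensity of 180.2 at the 16th percentile and group means of 7.16 in Npc1-/- P49, 7.73 in Npc1+/+ P49, 7.22 in Npc1-/- P21 and 7.74 in Npc1+/+ P21, and differed by -0.05 ± 0.63 with age in Npc1-/- (adjusted p = 0.982).

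**Figure D2:**
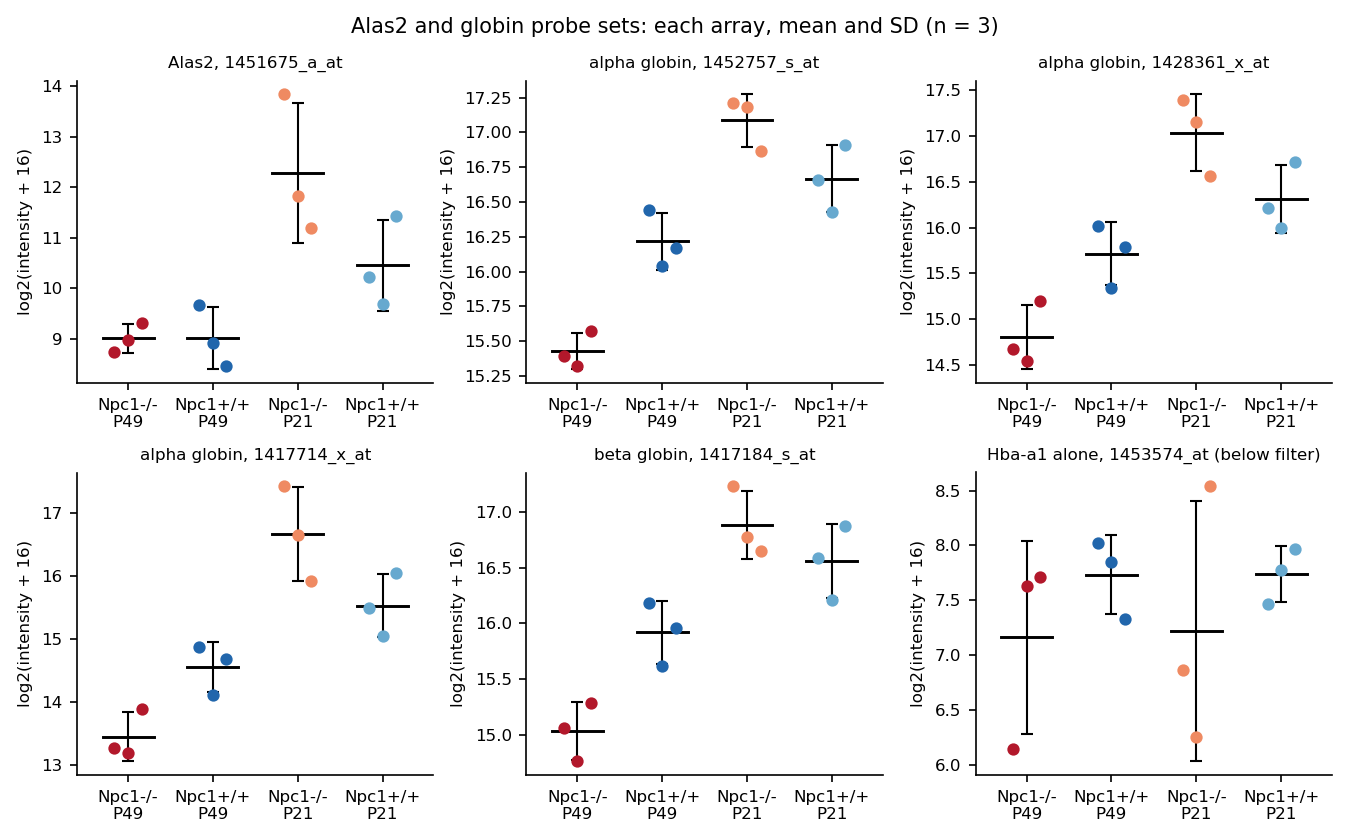
Log2(intensity + 16) of Alas2, the alpha globin probe sets, the beta globin probe set and the dim probe set of Hba-a1 alone on each array (points; replicates 1 to 3 from left to right), with the group mean (line) and SD (bar, n = 3 animals), for Npc1-/- P49, Npc1+/+ P49, Npc1-/- P21 and Npc1+/+ P21. In these normalized values, the 3 Npc1-/- P49 arrays are the lowest of the 12 for the 3 shared alpha globin probe sets and for beta globin, and Npc1-/- P21 replicate 1 is the highest. As deposited, Npc1-/- P21 replicate 2 is the highest for 1428361_x_at (172600) and 1452757_s_at (180900).

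Beta globin, the other chain of adult haemoglobin, was examined through the probe set assigned to Hbb-bt, Hbb-bs, Hbb-b2 and Hbb-b1. It was at 15.06, 14.76 and 15.28 in Npc1-/- P49 and at 16.18, 15.62 and 15.96 in Npc1+/+ P49. At P21 it was at 17.23, 16.77 and 16.65 in Npc1-/- and at 16.59, 16.21 and 16.87 in Npc1+/+. As for alpha globin, the Npc1-/- P49 arrays held the lowest 3 values of the 12. Beta globin differed by -0.89 ± 0.20 between genotypes at P49 (adjusted p = 0.0426) and by -1.85 ± 0.20 with age in Npc1-/- (adjusted p = 0.000241). Its differences at P21 (0.33, adjusted p = 0.674), with age in Npc1+/+ (-0.63, 0.342) and between the genotype effects (-1.22, 0.144) were not called. No alternative was run for beta globin, so how its calls depend on single arrays or on the processing was not tested. Alas2 did not follow the globins at P49, where its 3 Npc1-/- arrays ranked 8th, 9th and 11th of 12.

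Most markers of erythroid cells other than Alas2 and the globins were dim. Of 22 listed genes, 17 had a probe set of their own and 4 were above the filter, namely Bpgm, Tspan33, Sptb and Epor, of which none was called in any comparison. The remaining 13 had mean log2 intensities of 6.09 to 8.97, below the filter, and no value was at 0. Their summed intensity over the 17 genes was 18420 to 22220 in Npc1-/- P49, 20130 to 20970 in Npc1+/+ P49, 18020 to 23690 in Npc1-/- P21 and 17750 to 21130 in Npc1+/+ P21. Bpgm, at a mean of 13.14, was the brightest of the 17 and weighs most in this sum. Single genes stood out on Npc1-/- P21 replicate 1, the array on which Alas2 and the shared globin probe sets were highest after normalization. These genes were picked after their values were seen. Slc4a1, the anion exchanger of the red cell membrane, was at 10.85 there, against 7.87 to 9.35 on the other 11 arrays. Slc25a37, which is not among the 17 and brings iron into mitochondria for haem synthesis in erythroid cells, was at 12.70 there, against 10.35 to 11.47 on the others. Of the 17 genes, 4 (Bpgm, Ermap, Slc4a1 and Trim10) were highest on this array, and 0 to 3 on each other array. The 4 genes above the filter did not move together there. Bpgm was at its highest (13.47), Epor and Sptb were at their lowest (9.32 and 10.53), and Tspan33 was at neither end (11.77). The part of blood cells in the globin and Alas2 values was not tested beyond these levels.

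Other genes of haem synthesis, the enzymes shared by all cells and the transporters Slc25a38, Slc25a39, Abcb10 and Abcb6, showed no called difference. All 11 measured genes of 12 listed were tested, with 0 called in each of the 5 comparisons by limma and a median difference of -0.06 between genotypes at P49, beside -0.02 over all genes. Nearest to the threshold was Cpox, which makes protoporphyrinogen in mitochondria. It was at 11.09, 11.62 and 11.21 in Npc1-/- P49, against 12.08, 11.87 and 11.87 in Npc1+/+ P49, groups that did not overlap, and differed by -0.63 ± 0.17 (adjusted p = 0.0703). Uros, which closes the porphyrin ring, and the porphyrin transporter Abcb6 differed by -0.26 ± 0.17 and -0.28 ± 0.25 at P49 (adjusted p = 0.656 and 0.802). Among the other globins, Cygb, which encodes cytoglobin, alone was above the filter and differed by 0.32 ± 0.23 (adjusted p = 0.736).

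Ftl1, the light chain of the iron store ferritin, was higher in Npc1-/- than in Npc1+/+ cerebellum at P49 on both of its bright probe sets. These are also assigned to Ftl1-ps2, an annotated copy of the gene, so the signal of the copies cannot be told apart. Probe set 1418364_a_at was at 14.77, 14.94 and 14.97 in Npc1-/- P49, against 13.80, 14.01 and 13.88 in Npc1+/+ P49. At P21 it was at 14.22, 14.08 and 14.19 in Npc1-/-, against 13.52, 13.93 and 13.95 in Npc1+/+. The genotypes did not overlap at either age, and the 3 Npc1-/- P49 arrays were the highest of the 12. Between genotypes it differed by 0.99 ± 0.12 at P49 (fold 1.99, adjusted p = 0.000377) and by 0.36 ± 0.12 at P21 (adjusted p = 0.501).

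Probe set 1422302_s_at was at 15.22, 15.28 and 15.37 in Npc1-/- P49, against 14.37, 14.42 and 14.55 in Npc1+/+ P49, and at 14.67, 14.55 and 14.66 in Npc1-/- P21, against 14.20, 14.25 and 14.38 in Npc1+/+ P21. Here too the genotypes were separate at both ages. It differed by 0.84 ± 0.09 at P49 (fold 1.79, adjusted p = 0.000141) and by 0.35 ± 0.09 at P21 (adjusted p = 0.317). With age in Npc1-/-, the 2 probe sets differed by 0.73 ± 0.12 and 0.66 ± 0.09 (adjusted p = 0.0055 and 0.00156), against 0.09 ± 0.12 and 0.17 ± 0.09 in Npc1+/+ (0.923 and 0.682). The difference between these effects did not pass the test (0.63 ± 0.17 and 0.49 ± 0.13, adjusted p = 0.236 and 0.219). Without the 3 arrays with discordant sex-linked genes, the age differences in Npc1-/- were 0.66 and 0.61. The P49 genotype and Npc1-/- age calls of both probe sets held in all 21 alternatives run, with adjusted p of at most 0.0102 and 0.0466. The remaining probe set, 1422301_at, also assigned to Mir692-1, Mir692-2 and Mir692-3, was far dimmer (mean intensity 1676) and differed by 0.20 ± 0.22 at P49 (adjusted p = 0.876).

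Most markers of microglia and macrophages moved in the same direction as Ftl1. Of 20 listed genes, 19 had a probe set of their own and 15 were tested. Of the 15, 13 were called higher in Npc1-/- at P49 and 3 at P21, where 2.65% and 0.0638% of all genes were called. Tmem119 went the other way at P49, at a mean of 10.02 in Npc1-/- and 10.24 in Npc1+/+. The summed intensity of the 19 was 197700 to 250400 in Npc1-/- P49, 36480 to 37440 in Npc1+/+ P49, 61390 to 70390 in Npc1-/- P21 and 35190 to 44160 in Npc1+/+ P21, with no value at 0. The part of these cells in the values of Ftl1 and of the other genes with higher Npc1-/- P49 arrays was not tested.

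Fth1, the ferritin heavy chain that oxidises iron for storage, was among the brightest transcripts of the tissue, with probe set 1427021_s_at at the 99.9th percentile. It was at 17.12, 17.24 and 17.23 in Npc1-/- P49, against 17.00, 17.00 and 17.07 in Npc1+/+ P49, and at 16.82, 17.01 and 17.02 in Npc1-/- P21, against 16.81, 16.83 and 16.83 in Npc1+/+ P21. All Npc1-/- P49 values were above all others after normalization. As deposited they were not. Npc1-/- P49 replicate 1 (134800) was below Npc1+/+ P49 replicate 3 (135300) and Npc1-/- P21 replicates 2 (155800) and 3 (138400). The genotype difference was 0.17 ± 0.07 at P49 and 0.12 ± 0.07 at P21 (adjusted p = 0.335 and 0.541), and the age difference was 0.25 ± 0.07 in Npc1-/- and 0.20 ± 0.07 in Npc1+/+ (adjusted p = 0.0554 and 0.321). None passed. The age difference in Npc1-/- passed with a filter at the 60th percentile (adjusted p = 0.047) and with averaged probe sets (0.0323). It also passed without Npc1-/- P21 replicate 2 (0.036) or 3 (0.0444). Without the 3 arrays with discordant sex-linked genes it was 0.38. The highest adjusted p over all alternatives was 0.995. The difference was 0.00 when arrays were shifted to a common median in place of quantile normalization. The second probe set, 1448771_a_at, differed by 0.10 ± 0.11 at P49 (adjusted p = 0.891).

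**Figure D3:**
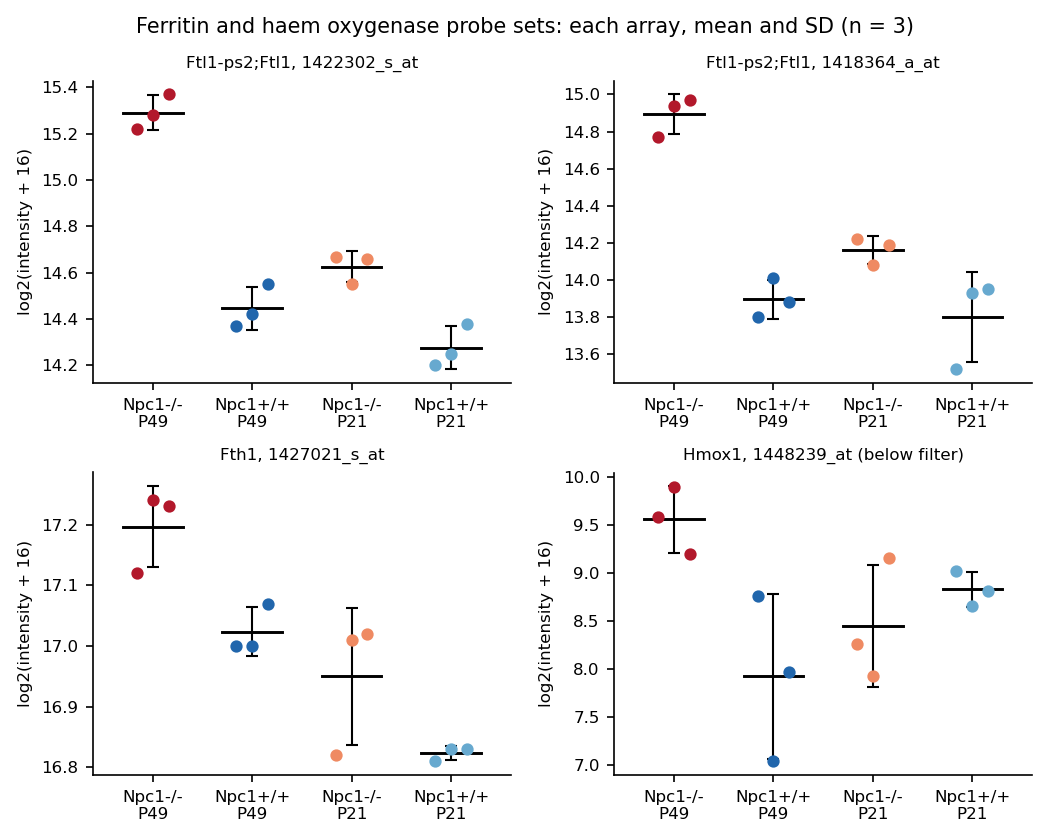
Log2(intensity + 16) of the 2 bright Ftl1 probe sets, the brighter Fth1 probe set and Hmox1 on each array (points; replicates 1 to 3 from left to right), with the group mean (line) and SD (bar, n = 3 animals), for Npc1-/- P49, Npc1+/+ P49, Npc1-/- P21 and Npc1+/+ P21. In these normalized values the Npc1-/- P49 arrays lie above all other arrays in the 4 panels, which for Fth1 does not hold as deposited. The y axes span different ranges.

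Hmox1, the inducible haem oxygenase that frees iron from haem, was dim throughout, with a mean intensity of 460.7 below the filter. It was at 9.58, 9.89 and 9.20 in Npc1-/- P49, against 8.76, 7.04 and 7.97 in Npc1+/+ P49, and at 8.26, 7.93 and 9.16 in Npc1-/- P21, against 9.02, 8.66 and 8.81 in Npc1+/+ P21. The Npc1-/- P49 arrays held the 3 highest values of the 12, whereas the P21 groups overlapped. Its difference at P49, 1.63 ± 0.47 (fold 3.10), did not pass the test over all probe sets (adjusted p = 0.161). Nor did that at P21 (-0.38 ± 0.47, adjusted p = 0.846), the difference between them (2.01 ± 0.67, 0.46) or that with age in Npc1-/- (1.11 ± 0.47, 0.286).

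Other genes of haem breakdown and transport gave no called difference by limma. All 17 listed genes had a probe set, 12 were tested, and their median difference at P49 was 0.05, beside -0.02 over all genes. Blvrb, a biliverdin reductase, was at 11.68, 11.36 and 11.63 in Npc1-/- P49, against 11.14, 10.62 and 11.33 in Npc1+/+ P49, and differed by 0.53 ± 0.18 (adjusted p = 0.21). The genes for 2 transcription factors that act on Hmox1, the activator Nfe2l2 and the repressor Bach1, differed by 0.40 ± 0.16 and 0.44 ± 0.19 at P49 (adjusted p = 0.309 and 0.365).

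Cp, the copper ferroxidase that partners ferroportin in iron release from astrocytes, had positive genotype differences at P49 on each of its 7 probe sets, from 0.45 to 1.17, and none was called. The brightest, 1417494_a_at, was at 11.52, 11.88 and 11.89 in Npc1-/- P49, against 11.00, 10.66 and 11.48 in Npc1+/+ P49. At P21 it was at 11.12, 11.71 and 11.64 in Npc1-/-, against 10.98, 10.77 and 11.23 in Npc1+/+. The groups were narrowly apart at P49 and overlapped at P21. In the test across genes Cp differed by 0.72 ± 0.22 at P49 and by 0.49 ± 0.22 at P21 (adjusted p = 0.15 and 0.487). Groups did not overlap at P49 for 5 of the 7 probe sets, which read 1 gene, beside 19% of all probe sets. Among them was 1448735_at at 10.20, 10.60 and 10.66 in Npc1-/- P49, against 9.32, 9.68 and 9.79 in Npc1+/+ P49 (0.89 ± 0.33, adjusted p = 0.353). At P21 the 7 ran from -0.72 to 0.93, and 4 of the 7 had a mean below the filter.

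Slc40a1, which encodes the iron exporter ferroportin, was at 11.52, 11.08 and 10.95 in Npc1-/- P49, against 10.48, 10.76 and 10.77 in Npc1+/+ P49, on its brighter probe set. At P21 it was at 11.63, 11.31 and 11.11 in Npc1-/-, against 11.15, 11.31 and 11.23 in Npc1+/+. The 3 Npc1+/+ P49 arrays were the lowest of the 12. The P49 genotype difference was 0.51 ± 0.19 (adjusted p = 0.246), and the age difference was -0.17 ± 0.19 in Npc1-/- and -0.56 ± 0.19 in Npc1+/+ (adjusted p = 0.65 and 0.278), so none was called. Its second probe set differed by 0.25 ± 0.25 at P49 with overlapping groups.

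No difference in the uptake genes passed the test. Tfrc, the transferrin receptor, was at 14.44, 14.36 and 14.35 in Npc1-/- P49, 14.12, 14.49 and 14.18 in Npc1+/+ P49, 14.66, 13.94 and 14.74 in Npc1-/- P21 and 14.57, 14.46 and 14.43 in Npc1+/+ P21 on its brightest probe set. Groups overlapped in every pair, and Npc1-/- P21 replicate 2 was the lowest array. The genotype difference was 0.12 ± 0.17 at P49 and -0.04 ± 0.17 at P21 (adjusted p = 0.88 and 0.945). The array controls for Tfrc read the 3′ and 5′ ends of the transcript, and the 3′ end exceeded the 5′ end by 1.64 to 2.27 log2 units in Npc1-/- P49, by 1.62 to 1.99 in Npc1+/+ P49, by 1.45 to 2.18 in Npc1-/- P21 and by 2.01 to 2.54 in Npc1+/+ P21. This measure of RNA and labelling quality overlapped between the genotypes at both ages and between the ages in Npc1-/-. Between the ages in Npc1+/+ it did not overlap, and its part in the age differences in Npc1+/+ was not tested.

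Trf, which encodes transferrin and is made in brain by oligodendrocytes and choroid plexus, was read only through a probe set also assigned to Srprb. It was at 14.56, 14.64 and 14.70 in Npc1-/- P49, against 14.81, 14.72 and 14.58 in Npc1+/+ P49, and at 14.56, 15.11 and 14.58 in Npc1-/- P21, against 14.92, 15.01 and 15.14 in Npc1+/+ P21. Genotypes overlapped at both ages, with differences of -0.07 ± 0.13 at P49 and -0.28 ± 0.13 at P21 (adjusted p = 0.944 and 0.622). Choroid plexus markers varied widely between arrays, with a sum over 9 genes of 91550 to 237800 in Npc1-/- P49, 18220 to 44110 in Npc1+/+ P49, 13220 to 198700 in Npc1-/- P21 and 16110 to 206100 in Npc1+/+ P21. Oligodendrocyte markers, summed over 16 genes, were at 528500 to 542000 in Npc1-/- P49, 546400 to 566600 in Npc1+/+ P49, 502400 to 634700 in Npc1-/- P21 and 673000 to 797500 in Npc1+/+ P21. Astrocyte and Bergmann glia markers, summed over 15 genes, were at 731000 to 817000 in Npc1-/- P49, 609300 to 639700 in Npc1+/+ P49, 576600 to 626400 in Npc1-/- P21 and 577000 to 614800 in Npc1+/+ P21. Of these 15 genes, 2 were called higher in Npc1-/- at P49, where 2.65% of all genes were called, and 13 were not called. Their median difference was 0.14, with 12 positive and 3 negative. Gfap, an intermediate filament of reactive astrocytes, averaged 16.65 in Npc1-/- P49 and 13.34 in Npc1+/+ P49 and weighs heavily in the higher sum. Like the brightest Cp probe set, the astrocyte sums did not overlap between the genotypes at P49. Nor did the choroid plexus and oligodendrocyte sums. Of the choroid plexus genes 4 were tested at P49, with 4 positive differences and 0 called. Ttr averaged 17.17 in Npc1-/- P49 and 14.05 in Npc1+/+ P49 and weighs heavily in the higher choroid plexus sum. Of the 16 oligodendrocyte genes, 1 was called lower at P49, beside 2.65% of all genes called, with 5 differences positive and 11 negative. The part of astrocytes, choroid plexus and oligodendrocytes in the Trf and Cp values was not tested.

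Slc11a2, the divalent metal transporter that moves iron out of endosomes, was near the filter on all 3 probe sets. The one that represents it was at 10.23, 10.36 and 10.28 in Npc1-/- P49, 10.29, 10.50 and 10.59 in Npc1+/+ P49, 10.67, 9.48 and 10.34 in Npc1-/- P21 and 10.19, 9.87 and 10.22 in Npc1+/+ P21. Its differences were -0.17 ± 0.28 at P49 and 0.07 ± 0.28 at P21, and the 3 probe sets disagreed in sign at both ages, with -0.17, 0.06 and 0.10 at P49. No difference was detectable at this spread.

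**Figure D4:**
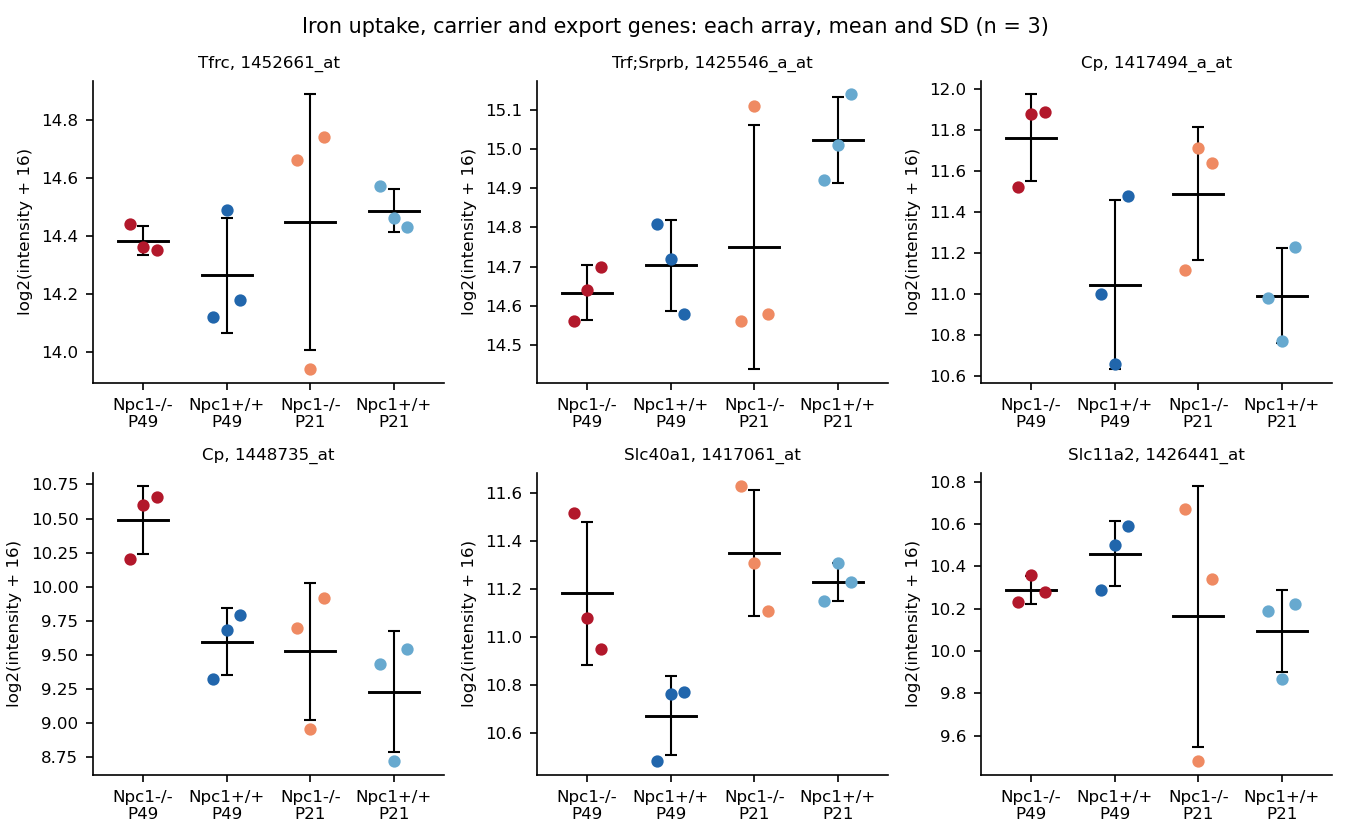
Log2(intensity + 16) of Tfrc, Trf;Srprb, 2 Cp probe sets, Slc40a1 and Slc11a2 on each array (points; replicates 1 to 3 from left to right), with the group mean (line) and SD (bar, n = 3 animals), for Npc1-/- P49, Npc1+/+ P49, Npc1-/- P21 and Npc1+/+ P21. Npc1-/- and Npc1+/+ arrays are separate at P49 for both Cp probe sets and Slc40a1 and overlap for Tfrc, Trf;Srprb and Slc11a2, and none of these differences passed the test.

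Of the wider iron genes, 1 was called in 1 comparison. Prnp, the prion protein, which has been described as a ferrireductase, was at 16.63, 16.67 and 16.70 in Npc1-/- P49, against 16.31, 16.08 and 16.25 in Npc1-/- P21, and differed by 0.45 ± 0.07 (adjusted p = 0.00315). In Npc1+/+ it was at 16.56, 16.59 and 16.57 at P49, against 16.50, 16.36 and 16.40 at P21, and differed by 0.15 ± 0.07 (adjusted p = 0.537), and the difference between these effects was 0.30 ± 0.10 (adjusted p = 0.41). It was 1 of 10 tested genes of transport and storage among 23 listed, where 6.23% of all genes were called for age in Npc1-/-, so the count is near the background. The receptor Slc22a17, which takes up lipocalin-bound iron, and the mitochondrial iron importers Slc25a37 and Slc25a28 differed by 0.31 ± 0.11, -0.61 ± 0.37 and 0.17 ± 0.11 at P49 (adjusted p = 0.253, 0.623 and 0.701).

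None of the 8 tested genes of iron regulation and none of the 12 of iron-sulfur cluster assembly was called by limma in any of the 5 comparisons. Bmp6, the ligand that induces hepcidin in liver, was at 11.32, 10.95 and 11.51 in Npc1-/- P49, against 10.58, 10.59 and 10.57 in Npc1+/+ P49. These groups did not overlap, but the difference of 0.68 ± 0.22 did not pass (adjusted p = 0.155). Hif1a, the oxygen-regulated factor, and Ireb2, which encodes iron regulatory protein 2, differed by 0.22 ± 0.11 and -0.18 ± 0.12 (adjusted p = 0.472 and 0.697). In iron-sulfur cluster assembly, the co-chaperone Hscb, the scaffold Iscu and the cytosolic factor Ciao1 differed by 0.36 ± 0.18, -0.23 ± 0.13 and -0.16 ± 0.14 (adjusted p = 0.515, 0.605 and 0.792). The median difference at P49 was 0.05 for regulation, 0.06 for transport and storage and -0.01 for cluster assembly, beside -0.02 over all genes.

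Across the 12 arrays, which share the 4 groups, the genes most like Ftl1 (probe set 1422302_s_at) among 7835 tested were C1qa, Lgals1 and Clec7a (Pearson r = 0.972, 0.970 and 0.968). Those most like alpha globin (1452757_s_at) were Ebp, Erc1 and Ppdpf (0.957, 0.952 and 0.951), and those most like Alas2 were Zfp821, Ythdf1 and Sh3bp5l (0.913, 0.905 and 0.897). C1qa, a complement gene of microglia, differed by 3.39 between genotypes at P49 (adjusted p = 7.35e-08). Ebp, a sterol isomerase, differed by -0.57 with age in Npc1-/- (adjusted p = 0.00535). These likenesses are a description over arrays of the same groups.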

How the data were processed

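Linear intensities, 1 for each probe set on each array, were deposited by the authors, and per the labels the RNA was biotin-labelled for Affymetrix arrays. How probes were summarised is not given in the sources used here. The values share a trimmed mean (2% off each end) of 5002 on all 12 arrays. All deposited sample columns were used (0 left out), and 33 of 22690 values were identical in the most alike pair of arrays. The time point labels were used, although 1 protocol text gives P21 for all animals.

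Intensities were taken as log2(intensity + 16) and quantile normalized, since array medians ranged from 10.65 to 10.92. In limma 3.58.1 (R 4.3.3), 4 group means were fitted over all 12 arrays with lmFit and eBayes with a mean-variance trend; tests are two-sided. Across genes, the brightest probe set with 1 symbol stood for each of 12393 genes, and the 7835 with a mean at or above the 40th percentile (intensity 959.1) were tested. A second fit took all 22626 probe sets that are not controls. The scripts were tested on simulated data. Depth in arrays has no count, and the number of arrays limits the precision. Symbols came from the platform annotation updated by Entrez identifier with RefSeq (GRCm38.p6): 20380 probe sets that are not controls had 1 symbol, 691 several and 1555 none. No probe positions are printed, as no build is named. Figures were drawn with matplotlib 3.10.9.

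The members and gene lists were chosen with earlier results of these data known. All 10 members are named; of the pathway lists, the called genes and up to 3 with the smallest p at P49; of marker lists, at most 4 of the brightest; and the 3 genes most like each called member. Alternatives were other normalizations, pseudocounts, filters and probe set averaging, no trend, fewer arrays, a replicate block and each array left out.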

Additional observations from a re-analysis of the deposited data

Results flagged for a closer look

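The genotype difference of alpha globin (probe set 1452757_s_at, assigned to Hba-a2 and Hba-a1) was not the same at the 2 ages by a test of that difference itself. The effect at P49 minus the effect at P21 was -1.21 ± 0.20 on the log2 scale (limma, adjusted p = 0.0254, n = 3 animals in each of 4 groups), and the effects themselves were -0.79 at P49 and 0.42 at P21. Over the alternatives run the value ranged from -1.54 to -1.09 and the adjusted p from 0.0136 to 0.168, and the call was lost in 8 of 21. In groups of 3, no test for a single outlying array was made.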

How the results depend on the processing

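Over 70 tested differences and their alternatives (1490 values), 1401 kept direction and side of the threshold, 14 lost the threshold, 14 passed only under an alternative and 61 changed sign in 17 differences, none of which was called in either setting. The cause was not tested except where stated. Alas2 is in the counts of called genes that follow only to show how they depend on the processing. Its call across genes rests on P21 arrays that took it above the filter, and it is not counted as a result. Called genes for P49 against P21 in Npc1-/- numbered 1 (Alas2), against 2 with averaged probe sets, 2 without the 3 arrays with discordant sex-linked genes and 0 to 2 without single arrays; in Npc1+/+ 0, against 1 without those 3 arrays. Called probe sets for genotype at P49 numbered 3, against 5 with only the arrays compared and 5 without those 3 arrays; for the difference of genotype effects 1, against 2 as deposited, 0 with no trend, 2 without those 3 arrays and 0 to 3 without single arrays. Without a trend the alpha globin calls at P49 and for that difference were lost (adjusted p = 0.0739 and 0.168), as was that of Alas2 for age among all probe sets (0.0545; 0.0589 with only the arrays compared).

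Sign changes without single arrays were, as ranges of the log2 difference, Alas2 at P49 -0.29 to 0.33; Cp age in Npc1+/+ -0.16 to 0.25; Fth1 difference of effects -0.01 to 0.09; Ftl1 (1418364_a_at) age in Npc1+/+ -0.04 to 0.17; Slc40a1 at P21 -0.02 to 0.24; Trf age in Npc1-/- -0.21 to 0.06. Tfrc ranged from -0.09 to 0.31 for the difference of effects, -0.19 to 0.22 at P21 and -0.32 to 0.09 for age in Npc1-/-. Slc11a2 ranged from -0.59 to 0.29 for the difference of effects, -0.05 to 0.42 at P21, -0.26 to 0.24 at P49, -0.25 to 0.21 for age in Npc1-/- and -0.48 to 0.45 in Npc1+/+, where another of its 3 near-equal probe sets can come to represent it. As deposited, Alas2 at P49 was 0.06 and the Fth1 difference of effects -0.11. Arrays shifted to a common median gave Fth1 -0.25 for that difference and 0.00 for age in Npc1-/-, and Tfrc -0.01 and, at P21, 0.03. Averaged probe sets gave Slc11a2 0.10 for the difference of effects, -0.10 at P21 and -0.08 for age in Npc1+/+, and Tfrc 0.12 for age in Npc1-/-. Without the 3 arrays, Cp age in Npc1+/+ was -0.06, Fth1 at P21 0.00, Slc11a2 age in Npc1-/- -0.39, Tfrc -0.04 for the difference of effects and 0.16 at P21, and Trf age in Npc1-/- 0.07.

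The main fit did not pair samples by replicate number. A correlation of deviations over 0.1 was found in 6 of 18 same-numbered pairs (-0.18 to 0.19), against 4 of 36 others (-0.21 to 0.31). Whether same-numbered arrays share a factor was not tested beyond the fit with a replicate block given below. Without Npc1-/- P21 replicate 1, Alas2 fell below the filter and has no value across genes, and Alas2, Cp, Slc40a1 and Slc11a2 fell below a filter at the 60th percentile. With the replicate number as a block the calls were 3 probe sets for genotype at P49 and 6 for age in Npc1-/-, and no count changed. Dim probe sets, Hmox1 and the P49 values of Alas2 among them, carry no detection call here.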
